A study of Bos taurus with 25 samples.

Results

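Gene expression in the mammary gland of lactating dairy cows was compared between cows given vitamin B12 alone and cows given saline. The comparison covered 7 of the 25 arrays of the series, 4 of B12 cows and 3 of Control cows, each array holding the RNA of a single biopsy from a separate animal. All were multiparous Holstein cows in lactation, sampled 64 ± 3 days after calving. Each received a weekly intramuscular injection of 5 mL, which held 10 mg of cyanocobalamin in the B12 group and saline alone in the Control group. The B9 group (320 mg of folic acid) and the B9 + B12 group (both vitamins at these doses) entered the model only to estimate the spread, and the 13 mammary arrays of the 4 groups were normalized together. The arrays were Agilent 1-colour bovine arrays, and every value below is a log2 intensity or a difference of log2 intensities, so that 1 unit is a 2-fold change. The number of arrays limits the precision. With 4 arrays against 3 there are 35 ways to split the cows, and the smallest p an exact permutation test can give is 0.0286.

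Vitamin B12, or cobalamin, is a cofactor of only a pair of mammalian enzymes. In the cytosol, methionine synthase (MTR) uses methylcobalamin to pass the methyl group of folate to homocysteine, which returns methionine to the methylation cycle and frees folate for nucleotide synthesis. In mitochondria, methylmalonyl-CoA mutase (MMUT) uses adenosylcobalamin to turn the carbon of propionate, the main glucose precursor of ruminants, into succinyl-CoA. Both enzymes were read above background on all 7 arrays of the gland, which makes casein, lactose and milk fat.

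The arrays carried the profile of a secreting gland. When both tissues were normalized together, the 13 milk protein genes found on the array had a mean level of 16.65 in the gland and 8.51 in the liver, and 11 hepatocyte markers had a mean level of 8.11 in the gland and 16.85 in the liver. Spots well above background made up 64.5% to 76.5% of a B12 array and 70.5% to 75% of a Control array. Correlations between arrays ran from 0.986 to 0.993 within the B12 group, from 0.990 to 0.993 within the Control group and from 0.989 to 0.993 between the groups. Single arrays stood apart for some genes. On the array of B12 cow 36, the haemoglobin genes HBB and HBA read 12.24 and 14.40, against 6.28 to 7.04 and 11.61 to 12.49 on the other 6 arrays. The array of B12 cow 52 carried the highest mean of the fibroblast and matrix markers, 10.66 against 9.77 to 10.06, and the highest PLIN2, a coat protein of lipid droplets, at 16.04 against 13.22 to 13.46. These genes were singled out after their values were seen, and their part in the differences below was not tested. In whole biopsies, fewer cells of a type and less RNA per cell cannot be told apart.

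No gene passed the threshold of limma, an adjusted p of at most 0.05 over all probes together with a 2-fold change. The count was 0 of 27841 genes (0%), and the smallest adjusted p was 0.9997. Before adjustment, 997 of 43653 probes (2.28%) had a limma p below 0.05. Cyber-T, the test of the study's methods, counted 8 genes on the same values (0.0287%), and 1579 probes had a Cyber-T p below 0.05 before adjustment. These 8 were RAB15, IRX6, ADGRF1 and 3 names without a current symbol on the higher side, and CXCL3 and SAA3 on the lower side. Difference by difference, the gland was nearly level. The median over all genes was 0.0021, and 90% of the genes lay between -0.21 and 0.19. A difference of at least 2-fold was seen for 22 genes on the higher and 23 on the lower side, of which only 6 and 3 were well above background on all 7 arrays with groups that did not overlap.

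**Figure D1:**
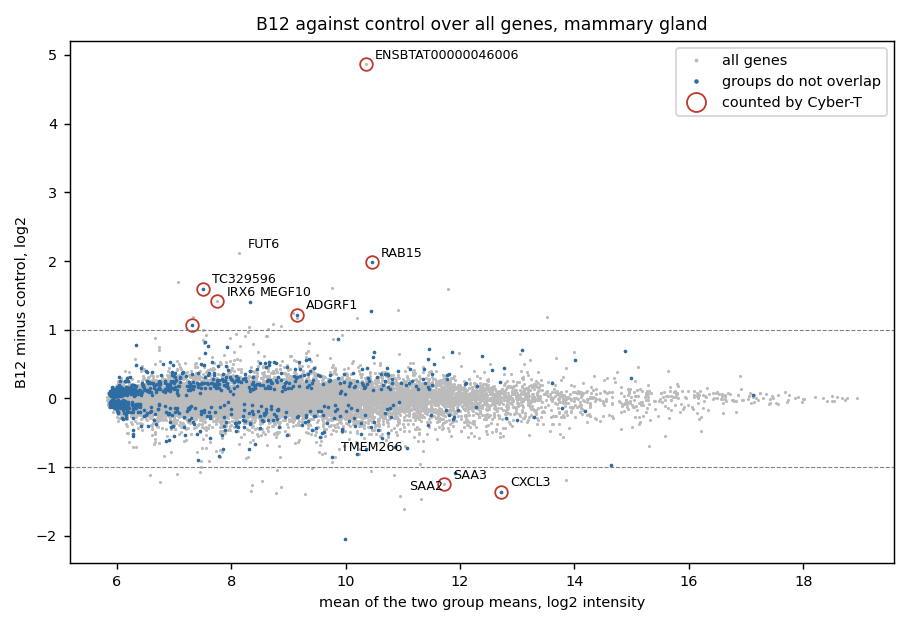
Difference of B12 minus Control (vertical axis, log2) against the mean of both group means (horizontal axis, log2 intensity) for all 27841 genes, each by its brightest probe. Blue points are genes whose 4 B12 arrays lay all above or all below the 3 Control arrays, circles mark the 8 genes counted by Cyber-T, and dashed lines are 2-fold. Nearly all genes lie close to 0, and the probe of ENSBTAT00000046006 stands alone at 4.86.

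Among the genes with a current symbol whose groups did not overlap, RAB15 had the largest difference. It encodes a small GTPase of the Rab family that sorts endosomes back to the cell surface. Its level was 8.32, 9.70 and 10.37 in the Control cows and 11.19, 11.50, 11.53 and 11.55 in the B12 cows. The Control cows were widely spread, whereas 3 of the 4 B12 cows lay between 11.50 and 11.55 with cow 36 below them. The mean difference was 1.98 (SE 0.62; exact permutation test, two-sided, p = 0.0286; limma adjusted p = 1; Cyber-T adjusted p = 0.0228). Without Control cow 43, the lowest, the difference was 1.41. A second bright probe of RAB15 differed by 1.89, and the other pair of its probes, close to background, by 0.21 and 0.24. With all probes averaged the difference was 1.08. The B9 arrays ran from 8.91 to 11.72 and the B9 + B12 arrays from 10.21 to 11.41.

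The study designed quantitative PCR primers for RAB15 and for ADGRF1 (listed there under the older name GPR110) on the same transcripts that the array probes target. They are shown because both genes are among those that Cyber-T counted. By PCR in the mammary gland the study reported RAB15 as higher with B12 and POSTN, described below, as higher with B9. It counted no other gene measured there as upheld, and so not ADGRF1. The sequences are from the study's primer list, 5′ to 3′, with no base marked by capitals.
RAB15 forward: ctgggattttagggtgcagcta
RAB15 reverse: cacgcctgctcaacagtctaag
ADGRF1 forward: tacgggtgccctctcattatatc
ADGRF1 reverse: atcggaccagttaagccaacat

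IRX6, a transcription factor of the Iroquois homeobox family, had levels of 6.60, 6.84 and 7.72 in the Control cows and 7.69, 8.48, 8.64 and 9.05 in the B12 cows. B12 cow 36 thus lay just inside the Control range, and the groups overlapped. The difference was 1.41 (SE 0.44; exact permutation test, two-sided, p = 0.0857; Cyber-T adjusted p = 0.0284). Its second probe, above background on 1 of 3 Control arrays and 3 of 4 B12 arrays, differed by 0.27. Among the other vitamin groups IRX6 ran from 6.93 to 8.52 with B9 and from 6.71 to 7.68 with B9 + B12. ADGRF1, an adhesion receptor of the G protein-coupled class, read 8.10, 8.55 and 8.96 in the Control cows and 9.45, 9.85, 9.85 and 9.86 in the B12 cows. All B12 cows lay above all Control cows, by 1.22 in the mean (SE 0.29; exact permutation test, two-sided, p = 0.0286; Cyber-T adjusted p = 0.0262). Its dimmer probe differed by 0.22, again with groups that did not overlap. MEGF10, a receptor for the engulfment of dying cells, read 6.55, 8.02 and 8.32 in the Control and 8.57, 8.92, 9.28 and 9.38 in the B12 cows. The difference of 1.41 (SE 0.50) was 0.87 without Control cow 43, the lowest, and its Cyber-T adjusted p was 0.0939. Its second probe gave 0.13 with groups that overlapped, and all probes averaged gave 0.77. The same average was 0.84 for IRX6 and 0.72 for ADGRF1.

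Over the whole array, groups that did not overlap were found for 621 genes with B12 higher (2.23%) and 430 with B12 lower (1.55%). These shares are the background for each count of list members with groups apart given below. At an unadjusted limma p below 0.05 there were 393 genes higher (1.41%) and 272 lower (0.977%). Of the genes with a current symbol that were well above background on all 7 arrays, 83 met both conditions with B12 higher and 34 with B12 lower, and the 12 largest of each direction are described here. No limma adjusted p of these 24 genes was below 0.9997. Their groups were required not to overlap, so that the exact permutation p given beside some of them describes that choice and is no independent test. The same holds for genes named because Cyber-T counted them and for list members named because their groups did not overlap.

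**Figure D2:**
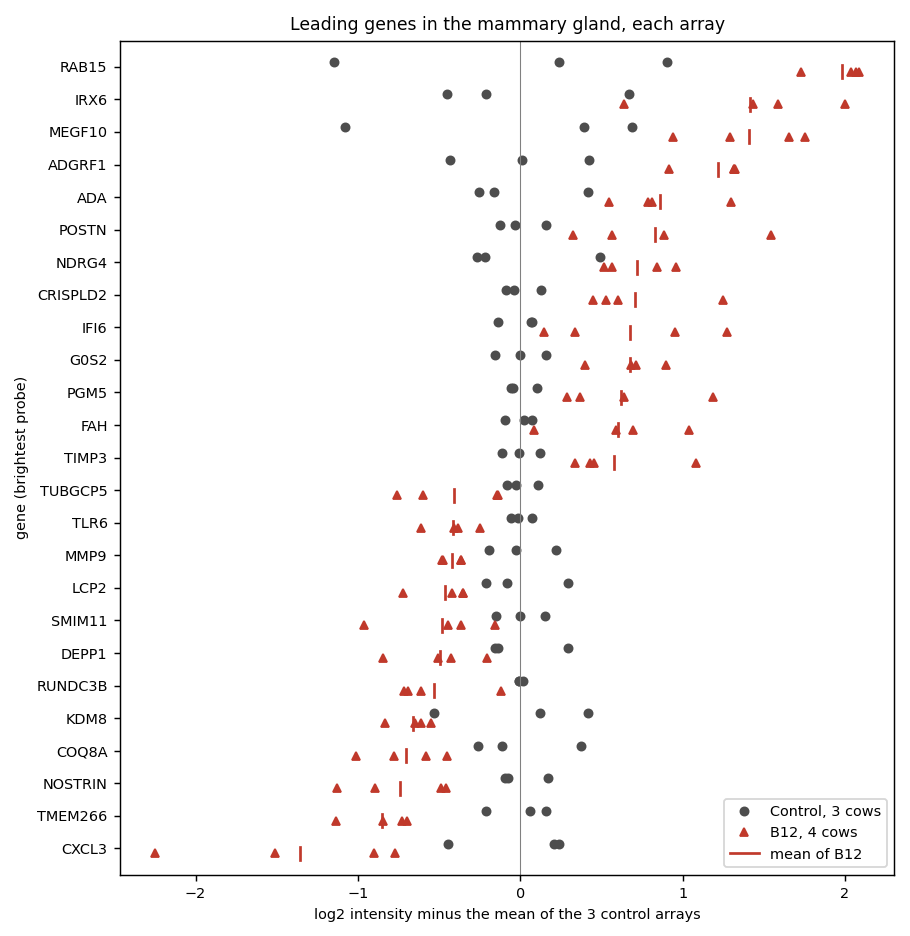
Log2 intensity of each array minus the mean of the 3 Control arrays (horizontal axis) for the 12 largest differences in each direction and IRX6 (vertical axis). Grey circles are the 3 Control cows, red triangles the 4 B12 cows and red bars the B12 means. RAB15 and MEGF10 have a single Control cow about 1 unit below the Control mean, and IRX6 alone overlaps between the groups.

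POSTN, or periostin, a matricellular protein, read 7.0, 7.09 and 7.29 in the Control and 7.45, 7.69, 8.01 and 8.67 in the B12 cows, a difference of 0.83 (SE 0.25). Cow 52 was the highest, and without it the difference was 0.59. The B9 arrays lay at 8.19 to 8.54 and the B9 + B12 arrays at 7.29 to 7.96. CRISPLD2, a secreted protein, read 12.65, 12.70 and 12.86 in the Control and 13.19, 13.26, 13.34 and 13.98 in the B12 cows, 0.71 apart in the mean (SE 0.18), and all 4 of its probes had B12 cows above Control cows, with 0.41 for their average. TIMP3, an inhibitor of the metalloproteinases that cut matrix, lay at 8.95 to 9.19 in the Control and at 9.41 to 10.15 in the B12 cows. Its difference of 0.58 (SE 0.18) was 0.41 without cow 36.

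ADA, which turns adenosine into inosine, read 9.17, 9.27 and 9.85 in the Control and 9.98, 10.22, 10.24 and 10.72 in the B12 cows, a difference of 0.86 (SE 0.29), and its second probe gave 0.81. G0S2, an inhibitor of the lipase that opens triglyceride stores, read 11.36, 11.51 and 11.68 in the Control and 11.91, 12.20, 12.23 and 12.42 in the B12 cows, a difference of 0.67 (SE 0.27). The groups of G0S2 did not overlap on its second probe either, where the difference was 0.73. FAH, the last enzyme of tyrosine breakdown, differed by 0.60 (SE 0.21) on its brightest probe and by 0.16, with groups that overlapped, on its other. On the first, B12 cow 37 at 10.27 sat against the highest Control cow at 10.25. PGM5, a protein of cell junctions related to phosphoglucomutase, differed by 0.62 (SE 0.21), or 0.43 without cow 36. NDRG4 differed by 0.72 (SE 0.30), but by only 0.03 between the cows of the slide that held B12 cow 40 and Control cow 51. IFI6, a mitochondrial protein induced by interferon, completed the 12 with 10.02 to 10.23 in the Control and 10.30, 10.49, 11.11 and 11.43 in the B12 cows, 0.68 apart (SE 0.28) and 0.48 without cow 37.

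On the lower side, CXCL3 had the largest difference of the 12 genes. CXCL3, a chemokine that draws neutrophils, read 12.96, 13.61 and 13.64 in the Control and 11.16, 11.89, 12.50 and 12.63 in the B12 cows. All B12 cows lay below the Control cows, and the difference was -1.36 (SE 0.49; exact permutation test, two-sided, p = 0.0571; Cyber-T adjusted p = 0.0469). SAA3, the serum amyloid A that the mammary gland itself makes in the acute phase, read 12.24, 12.31 and 12.46 in the Control and 10.34, 10.56, 10.86 and 12.61 in the B12 cows on its brightest probe. All B12 cows but cow 52 lay far below the Control cows, and cow 52 lay above them. The difference on this probe was -1.25 (SE 0.60), and -1.75 without cow 52. The other 3 probes of SAA3 gave -1.5, -1.47 and -1.45 with groups that did not overlap, and 2 of them were counted by Cyber-T (adjusted p = 0.0284 and 0.0345). SAA2 showed the same split of the cows, with 9.52, 9.89 and 9.95 against 11.58 in cow 52, and 11.38 to 11.86 in the Control cows. The difference of SAA2 was -1.42 (SE 0.60), and -0.51 on its second probe, where the groups did not overlap and 2 of 4 B12 arrays were above background.

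Smaller differences were seen in other immune genes. TLR6, a receptor that senses bacterial lipoproteins, lay at 10.59 to 10.72 in the Control and at 10.04 to 10.40 in the B12 cows, a difference of -0.41 (SE 0.10). All 6 of its probes were lower with B12, by between 0.077 and 0.55 on the log2 scale. LCP2, an adaptor of T cell receptor signalling, differed by -0.46 (SE 0.14), with its other probes at -0.48, -0.23 and -0.30. MMP9, a gelatinase of neutrophils, differed by -0.42 (SE 0.18) at a level of 6.91 to 7.61, and its other 2 probes, at or near background, by 0.0070 and -0.071.

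The lowest limma p of the 27841 genes belonged to TMEM266, a membrane protein with a voltage-sensing domain (unadjusted p = 0.000184 by limma, exact permutation p = 0.0286). It read 9.96, 10.24 and 10.34 in the Control and 9.05, 9.34, 9.45 and 9.48 in the B12 cows, a difference of -0.85 (SE 0.15), short of 2-fold. Its other probe, close to background, differed by -0.067, and the average of both by -0.46. NOSTRIN, which moves endothelial nitric oxide synthase away from the membrane, differed by -0.74 (SE 0.25). COQ8A, needed for coenzyme Q synthesis, differed by -0.71 (SE 0.24), and its other probes by -0.72 and -0.59 with groups that did not overlap. KDM8, a hydroxylase of the Jumonji class, was 8.21, 8.86 and 9.16 in the Control and 7.91 to 8.20 in the B12 cows. Its difference of -0.66 (SE 0.18) was -0.45 without Control cow 51 and -0.93 without Control cow 42. RUNDC3B (-0.53), DEPP1 (-0.50), SMIM11 (-0.48) and TUBGCP5 (-0.41), the last a part of the gamma-tubulin complex, closed the list. RUNDC3B was -0.27 with its probes averaged, and with the slide as a fixed term DEPP1 was -0.79 and NOSTRIN -1.13.

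A single slide can differ from another as a whole, and 2 slides held 1 array of each group. On the slide of B12 cow 52 and Control cow 43, RAB15 differed by 3.23, ADGRF1 by 0.89, IRX6 by 1.80, CXCL3 by -1.01, TMEM266 by -1.0 and SAA3 by 0.14. On the slide of B12 cow 40 and Control cow 51, the same genes differed by 1.79, 0.91, 1.33, -1.11, -0.51 and -1.74. SAA3 was thus the only one of these genes whose sign turned, on the slide with cow 52. Fitting the slide as a fixed term gave 2.46 for RAB15, 1.25 for ADGRF1, 1.62 for IRX6, -1.5 for CXCL3, -0.82 for TMEM266 and -0.81 for SAA3.

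Only 2 genes with a current symbol were above background on all arrays of a group and on none of the other. CCDC196, listed by the study under its reading frame name, was above background on all 4 B12 arrays, with 6.49 to 6.84, and on none of the 3 Control arrays, with 5.87 to 5.98. No size is given for a difference from readings at background, since the fitted value ran from 0.56 with scaling by the 75th percentile to 4.45 with the processed signal. In the B9 + B12 group it ran from 5.91 to 7.78. LOC280930 met the same rule, but its groups overlapped.

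The largest difference of the array belonged to a probe whose name was not paired with a gene symbol. ENSBTAT00000046006 read 6.19, 8.44 and 9.15 in the Control cows and 8.77, 13.38, 13.81 and 15.20 in the B12 cows. Cow 37 lay within the Control range while the other 3 B12 cows were far above every Control cow, and the difference was 4.86 (SE 1.45; exact permutation test, two-sided, p = 0.0857). Its second probe gave 4.58. The same probe ran from 9.60 to 10.81 with B9 and from 10.38 to 14.76 with B9 + B12. TC329596, also unpaired, read 6.36, 6.81 and 6.96 in the Control and 7.73, 7.78, 8.17 and 9.55 in the B12 cows, with 6.33 to 6.99 in the B9 and 6.40 to 6.70 in the B9 + B12 group. Its difference was 1.6 (SE 0.38; exact permutation test, two-sided, p = 0.0286; Cyber-T adjusted p = 0.0247).

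Genes that act on the vitamin itself showed little difference. Of the 19 genes of B12 uptake and cofactor handling, 15 were on the array, and their median difference was 0.049 (0.016 without cow 36), against 0.0021 over all genes. None had B12 cows above all Control cows, beside 2.23% of all genes, and a single gene had them below, beside 1.55%. This was MMAA, which guards the loading of adenosylcobalamin onto methylmalonyl-CoA mutase, with 8.58, 8.67 and 8.93 in the Control and 8.25, 8.36, 8.49 and 8.50 in the B12 cows. The difference of MMAA was -0.33 (SE 0.11), and -0.21 with its 3 probes averaged. MMAB, the enzyme that makes adenosylcobalamin, read 8.57, 8.59 and 8.71 in the Control and 8.10, 8.24, 8.33 and 8.73 in the B12 cows, a difference of -0.27 (SE 0.14) with groups that overlapped. TCN2, the plasma carrier that brings the vitamin to tissues, differed by 0.47 (SE 0.27), with 11.51 to 12.05 in the Control and 11.95 to 12.59 in the B12 cows. Its receptor CD320 differed by 0.17 (SE 0.26), the lysosomal exporter LMBRD1 by -0.02 (SE 0.10), and the processing proteins MMACHC and MMADHC by 0.14 and 0.02. CUBN and TCN1, which serve uptake from the gut, were not above background on any Control array.

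The 2 enzymes that use the vitamin were level. MTR read 6.55 to 6.78 in the Control and 6.67 to 6.86 in the B12 cows, a difference of 0.08 (SE 0.07), and its reductase MTRR differed by 0.06 (SE 0.10). MMUT read 9.15 to 9.46 in the Control and 9.19 to 9.38 in the B12 cows, a difference of -0.01 (SE 0.10). Around MTR, 12 of 16 methionine cycle and transsulfuration genes were found, with a median difference of 0.063 (0.00089 without Control cow 42) and 0 genes whose groups did not overlap. MAT2A, which makes S-adenosylmethionine outside the liver, differed by 0.14 (SE 0.23), AHCY, which clears S-adenosylhomocysteine, by 0.15 (SE 0.11), and CBS, which turns homocysteine to cystathionine, by -0.23 (SE 0.18). Around MMUT, the 11 of 12 propionate genes found had a median of 0.0036, and their differences ran from -0.053 for ACAD8 to 0.23 for PCCB, a subunit of propionyl-CoA carboxylase. The 14 methyltransferases and demethylases found had a median of 0.0073.

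For the folate cycle, 21 of 26 genes were found and the median difference was -0.0020. GART and ATIC, which carry the folate-dependent steps of purine synthesis, were the members with an unadjusted limma p below 0.05, and they differed in opposite directions. GART read 8.82, 8.94 and 8.99 in the Control and 9.03, 9.07, 9.10 and 9.10 in the B12 cows, a difference of 0.16 (SE 0.06) and the only gene of the list with groups that did not overlap. ATIC read 11.18 to 11.57 in the Control and 10.96 to 11.28 in the B12 cows, a difference of -0.26 (SE 0.09). MTHFD2, a mitochondrial folate enzyme, had the highest difference of the list, 0.17 (SE 0.27), with groups that overlapped. Other genes of the mitochondrial and serine side were close to 0, with SHMT2 at -0.04 (SE 0.08), MTHFD1L at -0.0018 (SE 0.09) and PHGDH at -0.01 (SE 0.29).

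**Figure D3:**
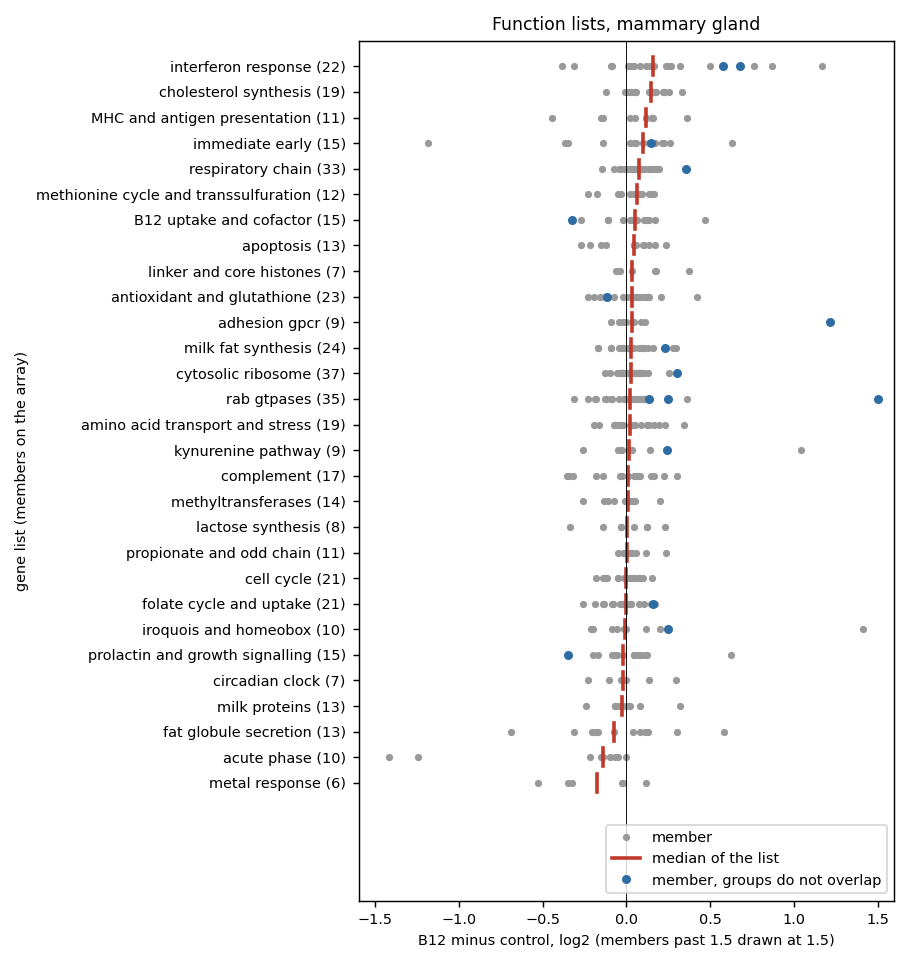
Difference of B12 minus Control (horizontal axis, log2) for each gene of 29 function lists (vertical axis, with the number of members on the array). Grey points are members, blue points members whose groups did not overlap, red bars the list medians. The medians, several of which change sign when a single cow is left out, lie between -0.17 for metal response and 0.16 for interferon response, and RAB15 is drawn at 1.5 although its value is 1.98.

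The medians of the milk synthesis lists were close to 0, although single members ranged more widely. The 13 milk protein genes found of 14 had a median of -0.026 and 0 members with groups that did not overlap. CSN1S1, CSN1S2, CSN3, PAEP and LALBA, that is the caseins, beta-lactoglobulin and alpha-lactalbumin, differed by between -0.04 and 0.0024, but they sit at the top of the intensity range, where quantile normalization holds arrays together. With scaling by the 75th percentile the median of the list was 0.13, while that of all genes was -0.13. LTF, lactoferrin, varied most between cows, from 16.08 to 17.54 in the Control and from 16.66 to 17.54 in the B12 cows, and differed by 0.32 (SE 0.66). The median was 0.0058 for 8 lactose synthesis genes, 0.027 for 24 milk fat genes and -0.075 for 13 genes of fat globule secretion. The last ran from -0.14 without cow 52 to 0.020 without Control cow 51, and its members from -0.69 for CIDEA to 0.59 for PLIN2. PLIN2 was far higher in cow 52 than on any other array, and the probes of CIDEA differed in direction. Among the lactose genes B4GALT1, the galactosyltransferase of lactose synthase, had the lowest difference, -0.34 (SE 0.36). SCD5, a fatty acid desaturase, was the only milk fat gene with groups that did not overlap, at 9.28 to 9.32 in the Control and 9.33, 9.43, 9.45 and 9.90 in the B12 cows (difference 0.23, SE 0.16), and without cow 40 it was 0.11. Of the 19 cholesterol synthesis genes found, 17 were higher with B12, the median being 0.15, and none had groups that did not overlap or an unadjusted p below 0.05. Without Control cow 42 that median was -0.019.

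STAT5B, which passes the prolactin and growth hormone signal to the nucleus, was the only one of 15 prolactin and growth signalling genes with groups that did not overlap. It read 9.34, 9.37 and 9.67 in the Control and 8.89, 9.07, 9.16 and 9.32 in the B12 cows, a difference of -0.35 (SE 0.18), and -0.57 with the slide as a fixed term. The closely related STAT5A differed by 0.07 and the list's median was -0.022. The only member with an unadjusted limma p below 0.05 was IGFBP5, a binding protein of insulin-like growth factors named after its values were seen, with 8.59, 8.76 and 8.83 in the Control and 8.81, 9.23, 9.60 and 9.75 in the B12 cows. Its difference was 0.62 (SE 0.23), with groups that overlapped through cow 37. UQCRFS1, the Rieske iron-sulfur protein of complex III, read 11.26, 11.33 and 11.42 in the Control and 11.47, 11.59, 11.81 and 11.90 in the B12 cows (difference 0.35, SE 0.10), with its other probes at 0.086 and 0.20 and overlapping groups. Of the 33 respiratory chain genes found, 26 were higher and 7 lower, with a median of 0.074 and UQCRFS1 alone with groups that did not overlap. The median of this list was 0.026 without Control cow 51 and 0.16 with the slide as a fixed term. RPS24 was the only one of 37 ribosomal protein genes with groups apart. Its difference of 0.30 (SE 0.17) was 0.16 without Control cow 51, with its other probe at -0.040. Over all genes 2.23% had groups apart with B12 higher and 1.55% with B12 lower, and the median was 0.0021.

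The remaining function lists had medians between -0.023 for 7 clock genes and 0.12 for 11 genes of antigen presentation. In between lay complement (0.011), kynurenine (0.013), amino acid transport (0.020), glutathione (0.033), histone (0.034), apoptosis (0.046), immediate early (0.098) and cell cycle genes (-0.0010). Their members with groups that did not overlap were KYAT3, KLF4 and GSTA5. KYAT3 differed by 0.24 on its brightest probe but by -0.0037 and -0.018 on its others, and KLF4 by 0.14 with 0.043 on its other probe. GSTA5 was not above background on any array, so that no difference is given for it. Without cow 36 the median was 0.020 for antigen presentation and -0.038 for immediate early genes.

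The family of RAB15 was examined as a whole. Of 42 Rab genes listed, 35 were found, with a median of 0.023. RAB6A, of the Golgi, differed by 0.25 (SE 0.09), with 0.011 and 0.029 on its other probes, and RAB11A, of the recycling endosome, by 0.14 (SE 0.15), both with groups that did not overlap. These 3 of 35 genes stand beside 2.23% of all genes, and the list was drawn up with the value of RAB15 known. In the same way, ADGRF1 was the only one of 9 adhesion receptors, whose median was 0.031, and the 10 Iroquois and other homeobox genes had a median of -0.0090 with MSX1 (0.25, SE 0.17, and 0.16 without cow 36) alone having groups apart.

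Interferon response genes had a median of 0.16. Of the 22 found, 18 were higher and 4 lower with B12, 4 had an unadjusted limma p below 0.05, all of them higher, and 2 had groups that did not overlap. Over all genes these shares were 1.41% and 2.23%. The members with groups apart on their brightest probe were IFI6, described above, and IFI27. IFI27 read 10.82, 11.29 and 11.34 in the Control and 11.43, 11.54, 11.88 and 12.05 in the B12 cows (difference 0.58, SE 0.19). Its other probes differed by 0.29 and 0.78. ISG15, a ubiquitin-like protein, was named after its value was seen and read 8.21, 8.65 and 8.83 in the Control and 8.65, 9.81, 9.97 and 10.49 in the B12 cows, 1.17 apart (SE 0.36). Cow 40 lay among the Control cows in ISG15 and in the interferon-induced MX1 and OAS1Y. The mean level of the whole list was 7.89, 7.89 and 7.90 in the Control cows and 7.77, 8.18, 8.21 and 8.42 in the B12 cows, so that 3 B12 cows lay above the narrow Control range and cow 40 below it. Its median was 0.099 with the slide as a fixed block and 0.29 without cow 40.

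In the acute phase list 9 of 10 genes were lower, with a median of -0.14 that was -0.0074 without Control cow 43, and SAA3 and SAA2 were the only members beyond -0.22. Of its members, 5 were above background on all 7 arrays. The metal response list, 6 genes of metallothioneins, zinc transporters and the factor MTF1, had a median of -0.17, which was -0.055 without cow 36. MT1A, a metallothionein also chosen after its values were seen, was split within the B12 group, at 7.28 and 7.52 in cows 40 and 36 and at 8.85 and 9.35 in cows 52 and 37, against 8.56 to 9.10 in the Control cows.

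Markers of the cell types that a biopsy can hold were compared to see which cells the groups shared. Luminal epithelium had a median of -0.024 over 10 markers, and its mean level ran from 10.66 to 10.90 in the Control and from 10.61 to 10.81 in the B12 cows. The 10 myoepithelial markers had a median of 0.19, with levels of 10.97 to 11.31 in the Control and 11.02 to 11.56 in the B12 cows, and the median was 0.076 without Control cow 43. All 9 endothelial markers were higher with B12, with a median of 0.18 and levels of 8.42 to 8.69 in the Control and 8.62 to 8.95 in the B12 cows, and the median was 0.083 without Control cow 42. Of these, TIE1 alone had groups that did not overlap, and its difference of 0.09 turned to -0.03 with scaling by the 75th percentile. T and NK cell markers were lower in 13 of 15 genes, with a median of -0.25. Their mean level was 8.44, 8.56 and 8.81 in the Control and 8.31, 8.37, 8.40 and 8.48 in the B12 cows, and the median was -0.088 without Control cow 42, the highest. CD8B was the only member with groups that did not overlap (difference -0.14, SE 0.05), but the difference was -0.088 without Control cow 42 and -0.053 on its other probe. The 14 fibroblast and matrix markers had a median of 0.23, which fell to 0.00054 without cow 52, and POSTN is one of them. The 9 neutrophil markers had a median of -0.00094, with MMP9 as the only member with groups apart, and the 12 macrophage markers had one of 0.084, which was -0.020 without cow 52. The median was -0.20 for 6 B and plasma cell markers (0.026 without Control cow 43), 0.024 for 7 adipocyte markers, 0.018 for 12 skeletal muscle markers, 0.099 for 6 red cell markers (-0.13 without cow 36) and -0.05 for 11 hepatocyte markers. LCP2, CXCL3 and TLR6 are expressed by leukocytes, and how far the levels of these lists bear on their differences was not tested.

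**Figure D4:**
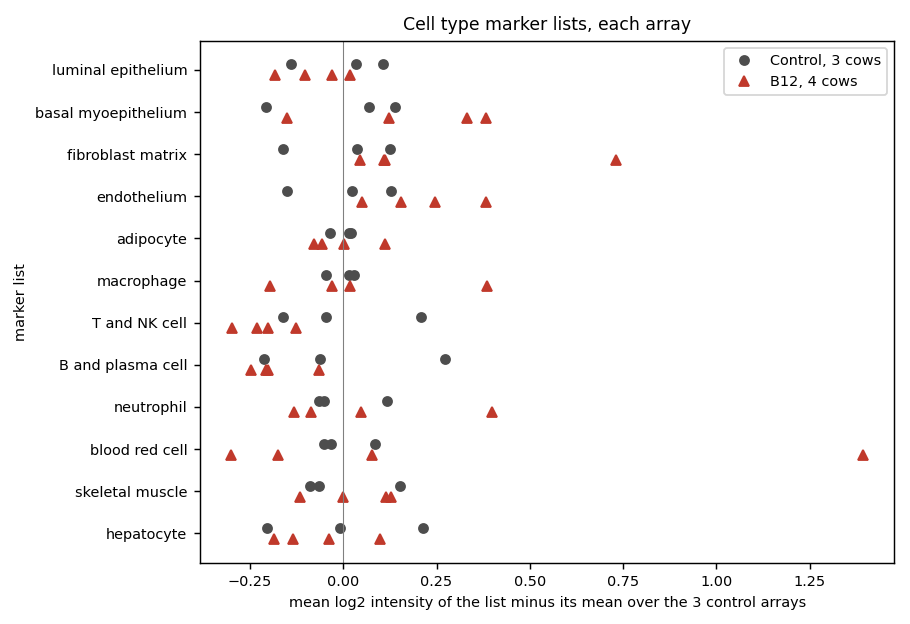
Mean log2 intensity of each cell type marker list on each array minus its mean over the 3 Control arrays (horizontal axis). Grey circles are the 3 Control cows and red triangles the 4 B12 cows. The red cell list of cow 36 and the fibroblast and matrix list of cow 52 stand apart, and the T and NK cell levels of the B12 cows lie at the low end.

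Taken over all 42 lists, 578 of 722 genes were found. Of these, 16 had all B12 cows above the Control cows (2.77%, against 2.23% of all genes) and 5 had them below (0.865%, against 1.55%). None was counted by limma.

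The study named 23 genes for the mammary gland under any of the treatments or in its PCR, and 15 were found on the array by their symbol. The other 8 were not matched by symbol and are not analysed here. Besides those described above, FUT6, a fucosyltransferase listed by the study as FUT5, differed by 2.11 (SE 0.95). Only 2 of its 3 Control arrays were above background, so that the size of this difference is uncertain. The Control cows read 6.00, 6.16 and 9.07 and the B12 cows 8.83, 9.0, 9.08 and 9.85, so that Control cow 42 alone lay with the B12 cows. IDO1, the first enzyme of tryptophan breakdown along the kynurenine route, read 7.75 to 7.84 in the Control cows, 7.78 and 7.80 in B12 cows 37 and 40, and 9.26 and 10.52 in cows 36 and 52. CIDEA, a protein of lipid droplets, differed by -0.69 on its brightest probe, but its 3 other probes gave -0.79, 1.07 and 1.08, so that no direction can be given. VAV1 (-0.37), SECTM1 (0.01), B4GALT1 (-0.34), SPP1 (0.32), ELF5 (0.05) and LALBA (-0.03) had groups that overlapped.

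Livers of the same treatment groups gave a test of whether the B12 difference was particular to the gland. By limma, the difference between the tissues passed the threshold for 0 of 27841 genes (0%). Before adjustment 829 probes had a p below 0.05, and Cyber-T counted 30 genes. The smallest adjusted p was 0.051 and belonged to IFI6, whose B12 difference was 0.68 in the gland and 3.73 in the liver. In the liver B12 was thus higher by 3.06 more on the log2 scale. The interferon list as a whole had a median of 0.16 in the gland and 0.58 in the liver. RAB15 differed by -0.05 in the liver, where its level was 6.62 against 11.34 in the gland with both tissues normalized together, and the difference between the tissues was 2.03 (limma adjusted p = 1). IRX6, ADGRF1 and MEGF10 had liver levels of 6.51, 6.06 and 6.19, at or close to the bottom of the scale. With RAB15 at 6.62 also close to it, little difference could be measured in the liver for any of these genes. POSTN, with a liver level of 10.06, differed by 0.02 in the liver. By limma none of these genes was shown to differ between the tissues, and the 30 genes of Cyber-T are not named here. G0S2 was higher with B12 in both, by 0.67 in the gland and 1.93 in the liver.

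**Figure D5:**
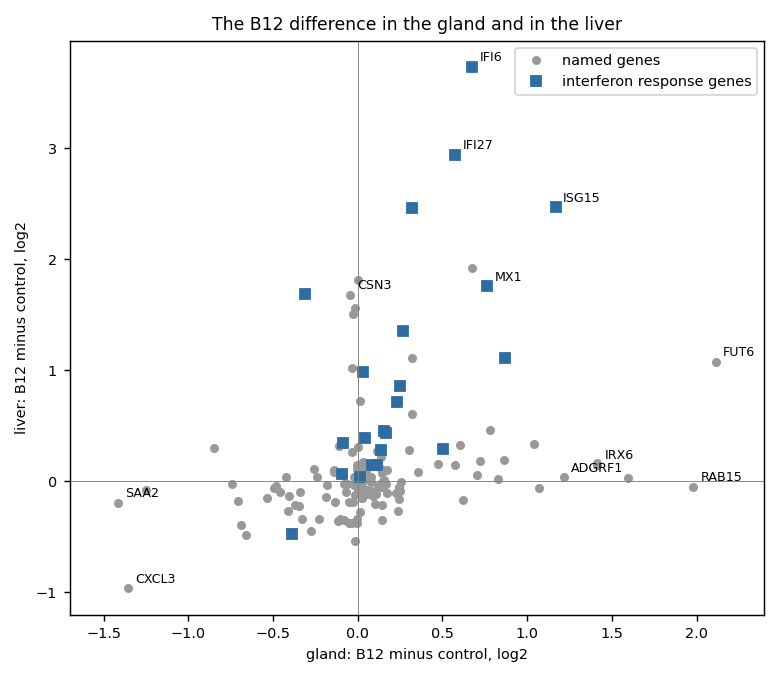
Difference of B12 minus Control in the liver (vertical axis, log2) against that in the gland (horizontal axis, log2) for the genes named by rule, with ENSBTAT00000046006 at 4.86 left outside the plot, and for the 22 interferon response genes (blue squares). RAB15, IRX6 and ADGRF1, whose liver levels were close to the bottom of the scale, lie along the horizontal axis. IFI6, IFI27 and ISG15 lie higher in the liver than in the gland.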

How the data were processed

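The deposited scanner files hold single-colour spot intensity values, made by the authors with Agilent Feature Extraction (version 9.1 in the submitters' processing notes, 10.7.3.1 in the file headers). The deposited log2 values, normalized by the authors, served as an alternative. From the intensities, background was corrected by normexp with an offset of 50, the 13 gland arrays were quantile normalized, and spots of a probe were averaged, which left 43653 probes. A gene was read from its brightest probe. limma 3.58.1 in R 4.3.3 fitted the 4 gland groups together, and a gene was counted at a Benjamini-Hochberg adjusted p of at most 0.05 with a 2-fold change on any probe. Cyber-T (window 101, confidence 10) was an alternative. The scripts were tested on simulated data.

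Named genes were the 12 largest differences each way among genes above background on all 7 arrays, with groups apart and an unadjusted p under 0.05. Genes the study names, genes counted by Cyber-T and genes detected in a single group were added. All members found were named for the B12, methionine cycle, propionate, folate and milk protein lists. From each other list came up to 4 members with groups apart. The members and lists were chosen with earlier results of these data known. Array probes were designed on another assembly than the RefSeq table used for names, so no coordinates are given. Cow numbers come from the sample titles. The same cows gave both tissues, except that cow 31 of the B9 + B12 group had a gland array only. The cow consensus correlation across tissues was -0.0203, and that of slides 0.196. All gland arrays were scanned on a single day. Exact permutation p-values rest on the 7 arrays compared alone. The limma p-values drew the spread from all gland arrays and moderated it over probes. Cyber-T took the spread largely from probes of like intensity (window 101, confidence 10), and less from these cows. For ENSBTAT00000046006 the unadjusted Cyber-T p was 4.0e-06, while the exact permutation p was 0.0857. The genes counted by Cyber-T thus do not rest on the spread between these cows alone. The array values of 1 named gene are not reported here.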

Additional observations from a re-analysis of the deposited data

Results flagged for a closer look

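In each case here, 1 of the 4 B12 arrays lay far from the other 3 relative to their range. Chance alone gives this in about 1 in 20 groups, and 125 genes and 42 lists were examined, of which 14 were so marked. Cow 36 was low for RAB15 (11.2, the others 11.50 to 11.55), THAP11 (7.03) and PEMT (9.31), and high for TIMP3 (10.1), MSX1 (7.23) and MAT2B (10.3). Cow 40 was low for ADGRF1 (9.45), SLC19A1 (6.68) and CSN1S1 (18.7) and high for MYL2 (6.71). Cow 37 was low for CSN3 (18.4) and GLYCAM1 (18.2) and high for the mean level of the milk fat list (11.69). CSN1S1, CSN3 and GLYCAM1 lie at the top of the scale, where quantile normalization gives arrays tied values. CSN1S1 and GLYCAM1 had the other 3 B12 arrays at 1 shared value, with gaps of 0.057 and 0.035. Cow 52 was high for the mean level of the fibroblast and matrix list (10.66).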

How the results depend on the processing

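The count of genes for B12 in the gland was 0 under limma in every alternative that kept all arrays, 8 with Cyber-T, and 0 to 1 when single cows were left out, the 1 being XM_873176 (-1.0) without Control cow 43. Probes at an unadjusted p below 0.05 were 534 with 75th percentile scaling, 575 with dim probes left out, 2293 with the slide as a fixed block, 1579 with Cyber-T, 1727 with array weights and 791 to 1481 with single cows left out, against 997. Genes with groups that did not overlap were 658 with 75th percentile scaling and 1949 to 3401 with a cow fewer, which leaves fewer arrays to overlap, against 1051. Genes whose B12 difference differed between gland and liver were 1 with a normexp offset of 0, without background correction, in the authors' table, with an offset of 16 and with dim probes left out, 2 with the slide as a fixed block, 30 with Cyber-T and 0 to 1 with single cows left out. The paired fit, with the cow as replicate block, gave 0, as without it. The offset of 16 and the array weights were chosen after seeing the data. Scaling by the 75th percentile moved the median of all genes to -0.13, and TIE1 to -0.025, which lies above that shift. Of 2641 values for named genes over 21 settings, 2525 stayed below the threshold and moved by no more than the pooled spread within the groups. A further 108 moved by more than that spread, and 7 passed the threshold. In 1 case a gene with groups apart or counted by Cyber-T changed sign. Causes were not tested. Dim probes close to background limit what can be measured.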
